A study of Mus musculus with 6 samples.

Results

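The injured tubule spots described here are the spots of mouse kidney sections with the highest combined level of Havcr1 and Lcn2. Gene expression was measured with 10x Genomics Visium. The slide carries an array of barcoded spots, and RNA released from a section is caught by the spot beneath it, so that a spot is a small region with several cells and not a cell. All spots with at least 1000 unique molecular identifiers (UMIs) of 6 libraries were pooled, each spot was scored by the mean over Havcr1 and Lcn2 of the natural log of 1 plus its UMIs per 10000, and the spots at or above the 95th percentile of that score were taken. This gave 935 of 18684 spots, at a score of 1.0055 or more. Cryosections of frozen, embedded kidney had a thickness of 10 µm. A spot with less of a gene may hold fewer cells that make it or less RNA per cell, and these cannot be told apart here.

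There was 1 library per group. The wild-type library (WT) came from a mouse labelled B6C57. The Alport syndrome (AS) libraries came from mice carrying the B6.Cg-Col4a5tm1Yseg allele, at 2 months (2m AS), at 5 months (5m AS), and at 5 months from mice labelled early treated and late treated with hEV. A mixed library held tissue of a wild-type and a heterozygous female. The ages of the WT and mixed animals, the dose of hEV and the meaning of early and late are not given in the sources used here. Libraries held 48940875 to 91976637 UMIs. Col4a5, which encodes a chain of type IV collagen, was at 3.84 to 6.53 plain CPM (UMIs per 1000000) in the 4 AS libraries, 10.2 in WT and 12.3 in the mixed library, and where the allele lies relative to the sequenced 3′ tags was not examined, so these levels check no label.

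Havcr1 (ENSMUSG00000040405, GRCm38 chromosome 11, 46735080 to 46779578) encodes KIM-1, a cell-surface receptor that injured proximal tubule cells make and with which they take up dead cells and oxidised lipids. Lcn2 (ENSMUSG00000026822, GRCm38 chromosome 2, 32384633 to 32388252) encodes NGAL, a secreted protein that binds bacterial siderophores, made by stressed tubule cells, above all of the distal nephron, and also by neutrophils and macrophages. Both are in wide use as markers of tubular injury. Alport syndrome is caused by defects of the collagen network of the glomerular basement membrane, and loss of tubules with scarring of the interstitium follows the glomerular disease.

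The injured tubule spots were unevenly spread over the libraries. In 5m AS 486 of 1989 spots were chosen, which is 24.4% with an exact binomial interval of 22.6 to 26.4%. In early treated 5m AS the share was 11.3% (384 of 3398 spots, 10.3 to 12.4%), and in late treated 5m AS 1.8% (51 of 2833, 1.34 to 2.36%). At 2 months 14 of 3182 AS spots were chosen, or 0.440% (0.241 to 0.737%). No spot was chosen among 4085 in WT, which allows a share of up to 0.0734%, nor among the 3197 mixed spots, for which the limit is 0.0938%. The intervals cover counting error only, and because the score chose the spots and each group is 1 section, the order of the shares is a description with no test.

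**Figure D1:**
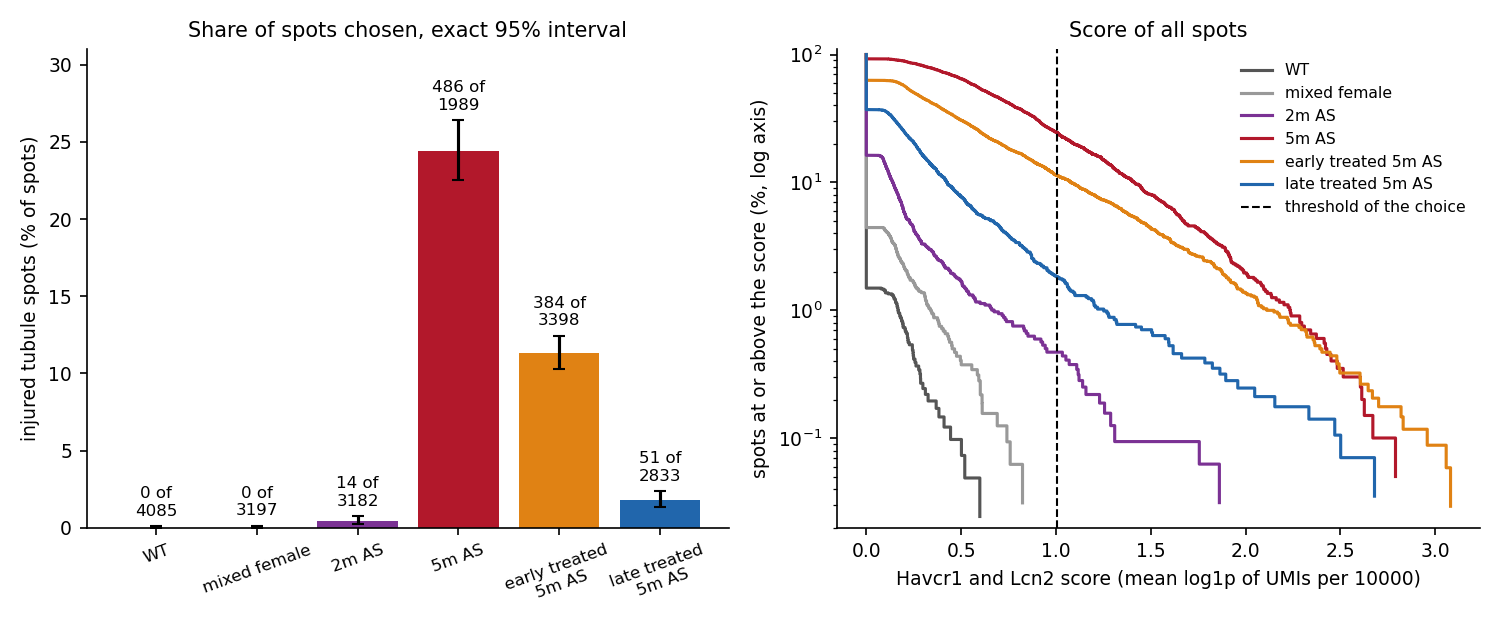
Left, share of spots chosen as injured tubule spots in each library (percent of spots with at least 1000 UMIs; bars show exact 95% binomial intervals, which cover counting error only). Right, share of spots at or above each score (log axis), with the threshold of the choice dashed; the 5m AS curve lies highest at the threshold (24.4%), and the WT and mixed curves end at scores of 0.599 and 0.824, before it.

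The choice lay within a continuous range. The score was 0 in 98.5% of WT spots, 95.6% of mixed, 83.7% of 2m AS, 7.49% of 5m AS, 37.1% of early treated and 62.9% of late treated spots, and it reached 2.79, 3.08 and 2.68 in the last 3. The 10 chosen spots nearest the threshold scored 1.0055 to 1.0122 and held 0 to 16 UMIs of Havcr1 and 0 to 14 of Lcn2. The 10 nearest spots left out scored 0.99959 to 1.0053 and held 0 to 14 and 0 to 7. Depth touches the choice, since a few UMIs in a shallow spot reach the threshold. The median chosen and other spot held 25997 and 26144 UMIs in 5m AS, 9448.5 and 13723 with early treatment, and 10827 and 18648 with late treatment. With each spot of at least 5000 UMIs thinned to that number, the shares were 27.4, 12.8 and 2.07% in these 3 libraries, 0.555% in 2m AS, 0.0337% (1 spot) in the mixed library and 0 in WT, and 650 of the 818 chosen spots that were deep enough were chosen again.

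Havcr1 and Lcn2 themselves, which made the choice, are given as a description. All values called CPM below are UMIs per 1000000 of the summed spots, scaled by TMM factors unless plain CPM is stated. Havcr1 was at 450 CPM in the chosen against 89.9 in the other spots of 5m AS, 724 against 50.1 with early treatment and 541 against 19.2 with late treatment. Lcn2 was at 328 against 95.3, 404 against 39.4 and 316 against 15.7 CPM in the same order. The chosen spots differed by less than 2-fold between libraries, while the other spots were highest in 5m AS and lowest in late treated 5m AS. In 5m AS the chosen spots held 64.3% of all Havcr1 UMIs, 55.2% of all Lcn2 UMIs and 24.4% of all UMIs, and in late treated 5m AS 28.4, 22.1 and 1.15%. Across 5m AS 79.2% of spots had a Havcr1 UMI, against 0.661% in WT and 1.09% in the mixed library. Spots are called led by podocyte genes where that list scored highest among lists of kidney segments, relative to all spots. They numbered 453 of 1989 in 5m AS and 273 of 4085 in WT, so such a spot need not be a glomerulus. In 5m AS 71.1% of them had a Havcr1 UMI, against 81.6% of the spots not led by podocyte genes, at median depths of 22103 and 27693 UMIs.

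Injured tubule spots were compared with the other spots of the same section in the 3 libraries with at least 20 of them (5m AS, early treated and late treated 5m AS), by summing UMIs over each kind of spot and fitting edgeR's quasi-likelihood test with the library as a block. Of 15078 genes tested, 1656 (11%) were higher in injured tubule spots and 2220 (14.7%) were lower, 25.7% in all, at a Benjamini-Hochberg adjusted p under 0.05. The 3 sections are in different treatment states, so the test measures the spread between these sections. Higher genes made up 42.7% of the calls, and 78.4% (4085 higher, 1125 lower) when plain library sizes replaced the TMM factors, a scaling that moved the median log2 ratio of all genes from 0.00 to 0.20. Without early treated 5m AS the counts were 730 higher and 1236 lower, and without the library block 0 genes passed in either direction (3237 at an unadjusted p under 0.05, and 908 higher and 1438 lower by DESeq2 with the block).

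Cytokines and a barrier protein of stressed epithelium led the higher genes. Il1f6 (ENSMUSG00000026984, GRCm38 chromosome 2, 24215418 to 24225702) encodes interleukin 36 alpha, an epithelial cytokine that activates NF-kB in neighbouring cells. It was at 13.2, 39.3 and 45.8 CPM in the injured tubule spots of 5m AS, early treated and late treated 5m AS, and at 3.12, 2.66 and 0.645 in the other spots. The log2 ratio was 3.53 ± 0.37 (SE derived from the test statistic, edgeR adjusted p = 1.51e-07). In late treated 5m AS 52.9% of its 34 UMIs came from 1 of 51 spots. Ccl20, a chemokine that draws CCR6-bearing lymphocytes and dendritic cells, was at 5.89, 36.4 and 6.73 CPM against 2.14, 2.57 and 0.474, a log2 ratio of 2.85 ± 0.34 (edgeR adjusted p = 9.83e-07). Its high level was that of early treated 5m AS, and the log2 ratio was 1.85 without that library.

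Sprr1a (ENSMUSG00000050359, GRCm38 chromosome 3, 92483952 to 92485895), a small proline-rich protein of the cornified envelope that is also made by regenerating cells, was at 47.1, 75.1 and 41.7 CPM in injured tubule spots and at 12, 9.75 and 1.5 in the others. Its log2 ratio was 2.65 ± 0.21 (edgeR adjusted p = 4.76e-09), and the naming required the same direction in all 3 sections. Lif, a cytokine of the interleukin 6 family, was at 16.3, 27.7 and 24.2 against 4.84, 3.66 and 1.48 CPM (log2 ratio 2.52). Il1rn, the antagonist of the interleukin 1 receptor, was at 12.8, 20.6 and 9.42 against 3.06, 3.21 and 0.872 CPM (log2 ratio 2.45). Krt20, a keratin of the urothelium and gut that injured tubules also make, was at 24.4, 55.3 and 10.8 against 8.91, 6.21 and 1.21 CPM (log2 ratio 2.31 ± 0.23, edgeR adjusted p = 6.56e-08).

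Of the other named higher genes, Aoc1, the enzyme that degrades histamine and putrescine, was at 139, 146 and 168 CPM against 49.9, 29.6 and 18.5 (log2 ratio 2.16 ± 0.17, edgeR adjusted p = 2.73e-09). Its level in injured tubule spots was the most even over the sections of the 12 named higher genes, and the sections differed more in the other spots. Slc34a2, a phosphate transporter of the lung and gut, was at 15.3, 15.8 and 26.9 against 7.04, 2.05 and 1.67 CPM (log2 ratio 2.16). Mmp7, a secreted metalloproteinase (matrilysin), was at 9.14, 13.4 and 29.6 against 4.23, 2.69 and 0.91 CPM, a log2 ratio of 2.19 ± 0.38 (edgeR adjusted p = 9.86e-05). Its high value in late treated 5m AS rested on 22 UMIs in 3 spots, with 90.9% of them in 1 spot, and the log2 ratio was 1.63 without that library and did not pass the test when the spots were chosen on Havcr1 alone (0.49). The log2 ratios of the 12 named higher genes were larger without 5m AS, as with Il1f6 (4.64), Krt20 (3.19) and Lif (3.27). The other spots of 5m AS held more Havcr1 (89.9 CPM) than those of early (50.1) and late treated 5m AS (19.2). Use of the same score threshold in every library can itself shape such a difference, and its part was not tested. The 12 named higher and 12 named lower genes passed the test without any 1 of the 3 libraries.

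**Figure D2:**
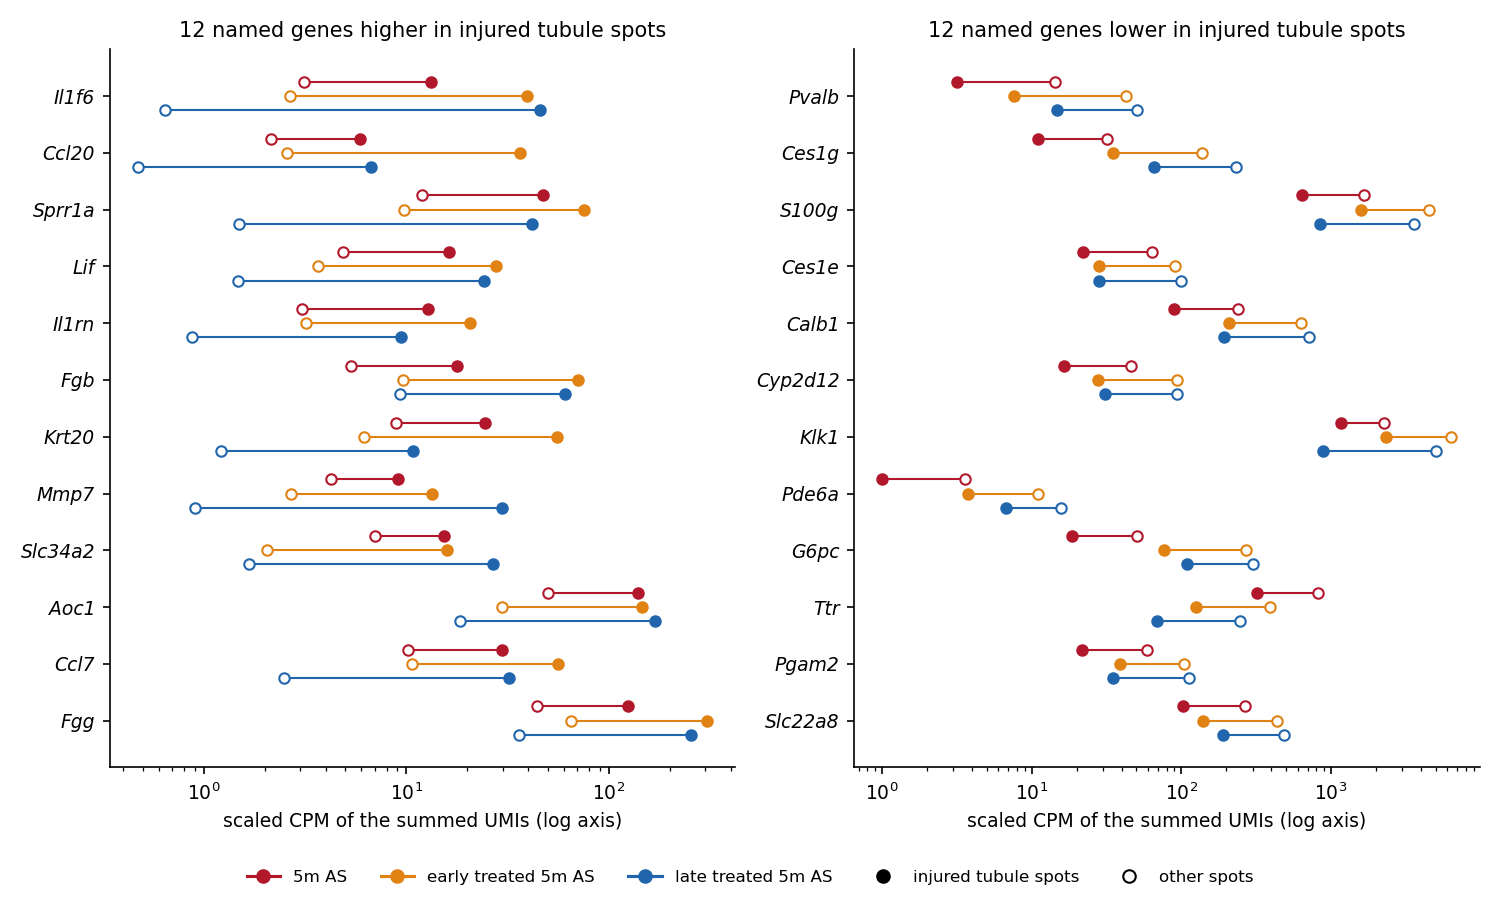
Scaled CPM (log axis) of the 12 named higher and 12 named lower genes in injured tubule spots (filled) and in the other spots (open) of the same section, 1 line per library. Genes were named only where the direction was the same in all 3 sections, so that agreement was fixed by the choice. For Il1f6 the gap widens from 5m AS (13.2 against 3.12) to late treated 5m AS (45.8 against 0.645), through both kinds of point.

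All 3 fibrinogen genes were higher. Fga, Fgb and Fgg encode the chains of fibrinogen, the clotting protein that the liver makes and that injured tubules can make. Fgg was at 125, 305 and 254 CPM in injured tubule spots against 44.3, 64.9 and 36.1 (log2 ratio 2.11 ± 0.14, edgeR adjusted p = 2.75e-10). Fga was at 107, 236 and 206 against 45.6, 52.9 and 36.1 CPM (log2 ratio 1.89), and Fgb at 17.8, 70.5 and 60.6 against 5.35, 9.59 and 9.35 CPM (log2 ratio 2.44). Each chain was higher in every section, which the naming required of Fgb and Fgg, and had its lowest level in injured tubule spots in 5m AS. Of the 15 tested genes of a list of complement and acute phase proteins, 8 were higher and 0 lower (median log2 ratio 0.35, against 0.00 over all genes). They included C3, the central complement protein, at 729, 877 and 770 CPM against 378, 269 and 139 (log2 ratio 1.67), and Saa1, an acute phase apolipoprotein, with a log2 ratio of 2.15 at levels of at most 4.83 CPM.

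A list of 20 other genes known from injured and incompletely repaired tubules gave 18 higher and 0 lower (median log2 ratio 1.03), set against 11% higher over all genes. All gene lists were written with earlier results of these data known, so their counts are a description. Spp1, the secreted matrix protein osteopontin, was at 13760, 16610 and 18340 CPM against 5294, 3990 and 2571 (log2 ratio 2.09 ± 0.17, edgeR adjusted p = 3.34e-09). Cd44, a receptor for hyaluronan and osteopontin, was at 45.2, 111 and 57.9 against 20.1, 19.6 and 9.67 CPM (log2 ratio 1.93). Vcam1, an adhesion molecule of tubule cells that fail to repair, was at 271, 483 and 339 against 127, 115 and 59.0 CPM (log2 ratio 1.84). Sox9, a transcription factor switched on in regenerating tubule cells, was at 26.6, 37.1 and 21.5 against 11.6, 8.63 and 5.71 CPM (log2 ratio 1.63). None of these 4 genes, picked from the list, overlapped between the 2 kinds of spot. The share of all genes tested without such overlap was not counted, so this describes the 4 genes only. The list kept 17 higher and 0 lower, with a median of 1.0, without the spots richest in macrophage markers.

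All 20 tested genes of a list of chemokines and NF-kB targets were higher (median log2 ratio 1.05). Ccl2 and Ccl7, which draw monocytes through CCR2, were at 118, 312 and 87.5 against 56.0, 63.3 and 15.6 CPM, and at 29.8, 56.4 and 32.3 against 10.2, 10.7 and 2.50 CPM (log2 ratios 1.82 and 2.12). Cxcl1 and Cxcl2, which draw neutrophils through CXCR2, had log2 ratios of 1.75 and 1.76, with Cxcl1 at 49.3, 56.6 and 41.7 against 20.3, 14.3 and 5.08 CPM. Nfkb2, a subunit of NF-kB, had a log2 ratio of 1.15. Ccl2 was tied to 1 of the marker genes: with spots chosen on Lcn2 alone its log2 ratio was 0.08 and did not pass the test.

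Stress-responsive transcription factors were higher as well, 11 of 14 with 0 lower (median log2 ratio 0.72). Among them were Myc at 30.8, 39.3 and 22.9 against 13.7, 11.2 and 5.65 CPM (log2 ratio 1.51) and Atf3, a factor of the stress response, at 37.0, 30.5 and 22.9 against 17.6, 8.68 and 3.47 CPM (log2 ratio 1.48). Fosl1, an AP-1 subunit, had a log2 ratio of 1.90 with levels of 6.82 and 11.6 CPM in 5m AS and early treated 5m AS, and no UMI in the injured tubule spots of late treated 5m AS. Of 20 regulators of matrix 15 were higher and 0 lower (median 0.71), led after Mmp7 by Timp1, the tissue inhibitor of metalloproteinases, at 198, 195 and 95.6 against 68.3, 47.2 and 21.2 CPM (log2 ratio 1.85 ± 0.10, edgeR adjusted p = 5.68e-11). Keratins gave 4 higher of 6, with Krt19 (0.85) and Krt18 (0.73), markers of simple epithelium, beside Krt20, and these 2 did not pass with spots chosen on Havcr1 alone (0.32 and 0.19). The cell cycle list gave 7 higher of 14 and 0 lower (median 0.39), with Top2a, a topoisomerase of dividing cells, at 0.87. Of 9 tested targets of p53, 5 were higher and 1 lower, including Gdf15 (0.91) and the cell cycle inhibitor Cdkn1a (0.83).

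Promoter sequences of these genes are shown because AP-1 and NF-kB genes were among those that moved together. Windows of 250 bases before the transcription start were read from RefSeq (GRCm38.p6), which held 11645 of the 15077 gene symbols tested. They were searched on both strands for an AP-1 motif, TGANTCA, and for the NF-kB motif of 10 letters, and the 2 did not overlap in the windows shown. Neither motif was in the windows of Havcr1 (first RefSeq start site, chr11:46739973-46740222, plus strand) or Lcn2 (chr2:32387740-32387989, minus strand). Both windows lie inside the gene spans given above, which begin further upstream than these RefSeq start sites. Sequence before the outer starts was not searched. The windows of Sprr1a (chr3:92485882-92486131, minus strand) and Fgb (chr3:83049864-83050113, minus strand) held AP-1 matches, and those of Cxcl1 (chr5:90890995-90891244, plus strand) and Cxcl2 (chr5:90903649-90903898, plus strand) held an NF-kB match each. Matches are in capitals, 5′ to 3′.
Havcr1: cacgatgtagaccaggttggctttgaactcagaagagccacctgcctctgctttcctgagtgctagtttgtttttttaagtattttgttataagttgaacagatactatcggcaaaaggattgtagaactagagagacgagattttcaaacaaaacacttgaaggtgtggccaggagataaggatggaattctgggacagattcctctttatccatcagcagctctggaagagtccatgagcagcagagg
Lcn2: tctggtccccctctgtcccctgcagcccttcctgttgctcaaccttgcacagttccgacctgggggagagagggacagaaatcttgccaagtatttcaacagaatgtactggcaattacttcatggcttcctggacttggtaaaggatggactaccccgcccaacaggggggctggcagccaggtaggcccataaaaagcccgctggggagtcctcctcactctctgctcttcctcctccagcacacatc
Sprr1a: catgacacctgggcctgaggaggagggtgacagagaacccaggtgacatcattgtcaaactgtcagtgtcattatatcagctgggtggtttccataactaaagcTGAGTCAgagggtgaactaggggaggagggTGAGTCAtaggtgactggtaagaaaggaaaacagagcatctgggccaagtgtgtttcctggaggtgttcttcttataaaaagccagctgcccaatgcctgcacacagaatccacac
Fgb: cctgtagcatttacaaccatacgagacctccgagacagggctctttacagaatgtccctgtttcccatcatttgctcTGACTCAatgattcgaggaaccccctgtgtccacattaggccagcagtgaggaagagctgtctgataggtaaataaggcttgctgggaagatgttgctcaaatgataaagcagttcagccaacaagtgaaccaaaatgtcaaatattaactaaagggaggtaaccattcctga
Cxcl1: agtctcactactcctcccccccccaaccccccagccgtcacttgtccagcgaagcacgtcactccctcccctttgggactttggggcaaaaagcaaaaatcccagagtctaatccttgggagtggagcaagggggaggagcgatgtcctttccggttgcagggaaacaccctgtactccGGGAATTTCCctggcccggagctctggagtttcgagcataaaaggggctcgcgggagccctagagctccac
Cxcl2: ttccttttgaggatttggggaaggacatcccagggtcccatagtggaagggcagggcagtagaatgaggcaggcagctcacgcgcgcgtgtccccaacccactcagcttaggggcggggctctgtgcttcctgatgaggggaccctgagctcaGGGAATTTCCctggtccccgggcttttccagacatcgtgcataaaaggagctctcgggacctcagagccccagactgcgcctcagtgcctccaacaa

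Of the genes matched, 5.95% of all tested had an AP-1 match and 0.472% an NF-kB match, and of all 27025 symbols with a window 7.82 and 0.414%. Among the 1270 matched genes that were higher in injured tubule spots, 126 (9.92%) had an AP-1 match and 17 (1.34%) an NF-kB match. Among the 205 matched genes that were at least 2-fold higher, 34 (16.6%) and 9 (4.39%) had them, and among the 1765 matched genes that were lower, 5.78 and 0.397%. Of the 15 chemokine and NF-kB genes with a window, 4 had an AP-1 and 6 an NF-kB match. A match describes letters of the sequence and was not examined for binding.

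Calcium-handling genes of the distal tubule were among the 12 named lower genes. Pvalb, a calcium buffer of the early distal convoluted tubule, was at 3.18, 7.68 and 14.8 CPM in injured tubule spots against 14.3, 42.8 and 50.5 in the others (log2 ratio -2.25 ± 0.15, edgeR adjusted p = 2.01e-10). S100g and Calb1, the calbindins of calcium-transporting distal tubules, were at 644, 1581 and 839 against 1657, 4539 and 3592 CPM, and at 89.3, 208 and 194 against 240, 635 and 709 CPM (log2 ratios -1.65 and -1.61). Klk1, kallikrein of the connecting tubule, was at 1160, 2324 and 889 against 2271, 6371 and 5006 CPM (-1.61). The 2 kinds of spot did not overlap over the sections for S100g and Calb1, while for Pvalb and Klk1 the highest injured tubule value lay just above the lowest of the other spots, that of 5m AS. How many of all genes tested lacked such overlap was not counted, so this describes these genes only. A list of the distal convoluted and connecting tubule gave 0 higher and 7 lower of 9 (median -1.06).

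Of the proximal tubule, 12 of 12 early segment genes were lower (median log2 ratio -1.05, background 14.7% lower). Slc34a1, the sodium phosphate cotransporter of the brush border, was at 1542, 2222 and 2867 CPM against 3338, 5051 and 6139 (log2 ratio -1.13 ± 0.09, edgeR adjusted p = 3.23e-09). G6pc, the last enzyme of glucose production, was at 18.7, 76.4 and 109 against 50.5, 270 and 303 CPM (log2 ratio -1.60). Slc22a8, a basolateral transporter of organic anions, was at 103, 141 and 191 against 265, 439 and 484 CPM (-1.46). The other 6 named lower genes were the carboxylesterases Ces1g (-1.78) and Ces1e (-1.62), the cytochrome P450 gene Cyp2d12 (-1.61), the phosphodiesterase subunit Pde6a (-1.61), Ttr, a carrier of thyroid hormone and retinol-binding protein (-1.55), and Pgam2, a phosphoglycerate mutase (-1.47). Every gluconeogenesis gene tested was lower (8 of 8, median -1.0), as were 12 of 13 organic ion transporters (-0.72), 15 of 16 fatty acid oxidation genes (-0.72) and 18 of 18 nuclear-encoded subunits of oxidative phosphorylation (-0.57), with 0 higher in each. With plain library sizes these medians moved to -0.79, -0.51, -0.50 and -0.35. Late proximal segment genes gave 7 lower of 10 and 0 higher (-0.64), among them the cystine transporter Slc7a13 (-0.99).

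Thick ascending limb and collecting duct genes were split. Egf, made by the ascending limb, was at 162, 148 and 217 CPM against 286, 347 and 443 (log2 ratio -1.02 ± 0.09, edgeR adjusted p = 1.81e-08). Umod, the most abundant urinary protein and a product of the same segment, was at 5290, 3343 and 4414 against 4794, 2900 and 2754 CPM (log2 ratio 0.34 ± 0.10, edgeR adjusted p = 0.0158). Slc12a1, the salt transporter of that segment, was at 486, 178 and 322 against 524, 189 and 298 CPM and did not pass (-0.04). The ascending limb list had 2 higher and 5 lower of 10 (median -0.19, and 0.02 with plain library sizes), and the collecting duct list 1 higher and 7 lower of 16 (-0.24). Both depended on the marker: with spots chosen on Lcn2 alone the collecting duct list had 11 higher and 0 lower (median 0.37), and on Havcr1 alone 0 higher and 14 lower (-0.56), while Umod turned to -0.19 on Havcr1 alone and missed the test without late treated 5m AS (0.17).

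Markers of several other cell types moved with the injured tubule spots. All 17 macrophage markers were higher (median log2 ratio 0.74), with Cd14 at 1.36 and Cd68 at 0.86, and none was at 0 in any section. Their summed level was 2680, 2087 and 1870 CPM against 1873, 1211 and 959.3. Of 14 fibroblast genes 11 were higher and 0 lower (median 0.58), summing to 7052, 4915 and 4526 against 5092, 3691 and 2516 CPM. All 7 genes of MHC class II (median 0.75) and 13 of 14 interferon-inducible genes (0.57) were higher, with 0 lower. The T and NK cell list was near the 11% called higher over all genes, with 2 of 11 higher, of which Ccl5 (1.38, and 0.67 without early treated 5m AS) was 1. Set against 14.7% lower over all genes, 6 of 10 endothelial genes (median -0.29), 6 of 10 podocyte genes (-0.65) and 3 of 8 of the B and plasma cell list (-0.26) were lower, with 0 higher in each. Endothelial genes summed to 630, 518 and 673 against 677, 726 and 771 CPM. Neutrophil markers, which matter because neutrophils make Lcn2, summed to 10.9, 18.4 and 2.69 CPM against 8.69, 8.68 and 6.64. Of these 10 markers, 3 were abundant enough to test, 0 passed the edgeR test (2 had an unadjusted p under 0.05) and 0 passed with DESeq2, and 3, 4 and 8 were at 0 in injured tubule spots. Of 8 urothelium markers, which matter because urothelium makes Krt20, 5, 4 and 7 were at 0 there, and 2 could be tested with 0 called.

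The macrophage share was followed directly. Spots at or above the pooled 95th percentile of a macrophage score made up 39.7, 29.7 and 27.5% of the injured tubule spots of 5m AS, early and late treated 5m AS, and 13.8, 7.66 and 5.68% of the others. With these spots left out of both sides, an alternative chosen after seeing the data, 925 genes were higher and 1383 lower. The 12 named higher genes and the 12 lower genes still passed, the chemokine list had 17 higher and 0 lower (median 1.04), the early proximal list 12 lower of 12 (-1.01), and the macrophage list 14 higher (0.47). The part that macrophages and fibroblasts have in the remaining differences was not tested.

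To see where injured tubule spots differed from inflamed tissue at large, they were compared with the macrophage-rich spots that were not chosen (207, 231 and 158 spots in the 3 sections). The genes of both choices were left out. Of 12409 genes 555 (4.47%) were higher in injured tubule spots and 772 (6.22%) lower, and higher genes made up 41.8% of the calls, or 21.0% with plain library sizes. Without early treated 5m AS the counts were 293 and 407.

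Sprr1a had the largest log2 ratio of the named genes (2.92 ± 0.23, edgeR adjusted p = 1.46e-05), at 52.5, 83.2 and 47.1 CPM in injured tubule spots and 10.2, 9.13 and 1.32 in macrophage-rich spots. Il1f6 followed at 2.47, and then the 3 fibrinogen chains, with Fgg at 139, 338 and 287 against 53.2, 77.3 and 34.3 CPM (2.06), Fga at 2.0 and Fgb at 1.8. The remaining gene named, Ccl20 (1.74), missed the test without early treated 5m AS (0.51). Spp1 (1.69), Krt20 (1.59) and Cxcl1 (1.13) were also higher, whereas Ccl2 (0.62) and Cd44 (0.53) missed the test without early treated 5m AS (0.20 and 0.30). The injured tubule list had 13 higher and 1 lower of 20 (median 0.50, against 0.01 over all genes) and the chemokine list 4 higher and 2 lower of 18 (0.19).

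The comparison spots were chosen for a high macrophage score, so lower levels of macrophage genes, Gpnmb and MHC class II among them, were favoured by that choice and are given as a description. Gpnmb, a glycoprotein of lipid-laden macrophages, was at 8.11, 5.60 and 1.52 CPM against 33.4, 33.3 and 18.9 (log2 ratio -2.25). Igfbp2, a carrier of insulin-like growth factors, was at 17.3, 15.1 and 6.08 against 67.5, 84.3 and 59.8 CPM (-2.21), and Sfrp2, a modulator of Wnt signalling from fibroblasts, at 7.42, 4.63 and 7.60 against 21.7, 32.8 and 39.6 CPM (-2.0). Cxcl9, the interferon-induced chemokine that draws T cells, followed at -1.82. Fibroblast genes gave 7 lower of 14, MHC class II 6 of 7, matrix regulators 10 lower and 3 higher of 19, podocyte genes 8 of 10 (median -1.01) and endothelial genes 8 of 10 (-0.54). Tubule lists were split in this comparison. Higher were 9 of 10 genes of the late proximal list (median 0.74), 8 of 10 of the ascending limb list (0.70, with Umod at 1.39), and 8 of 15 fatty acid oxidation genes (0.34), with 0 lower in each. The early proximal list had 1 higher and 5 lower of 12 (-0.25), the collecting duct list 0 higher and 6 lower of 15 (-0.33), and the distal convoluted and connecting tubule list 0 higher and 3 lower of 9 (-0.22).

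**Figure D3:**
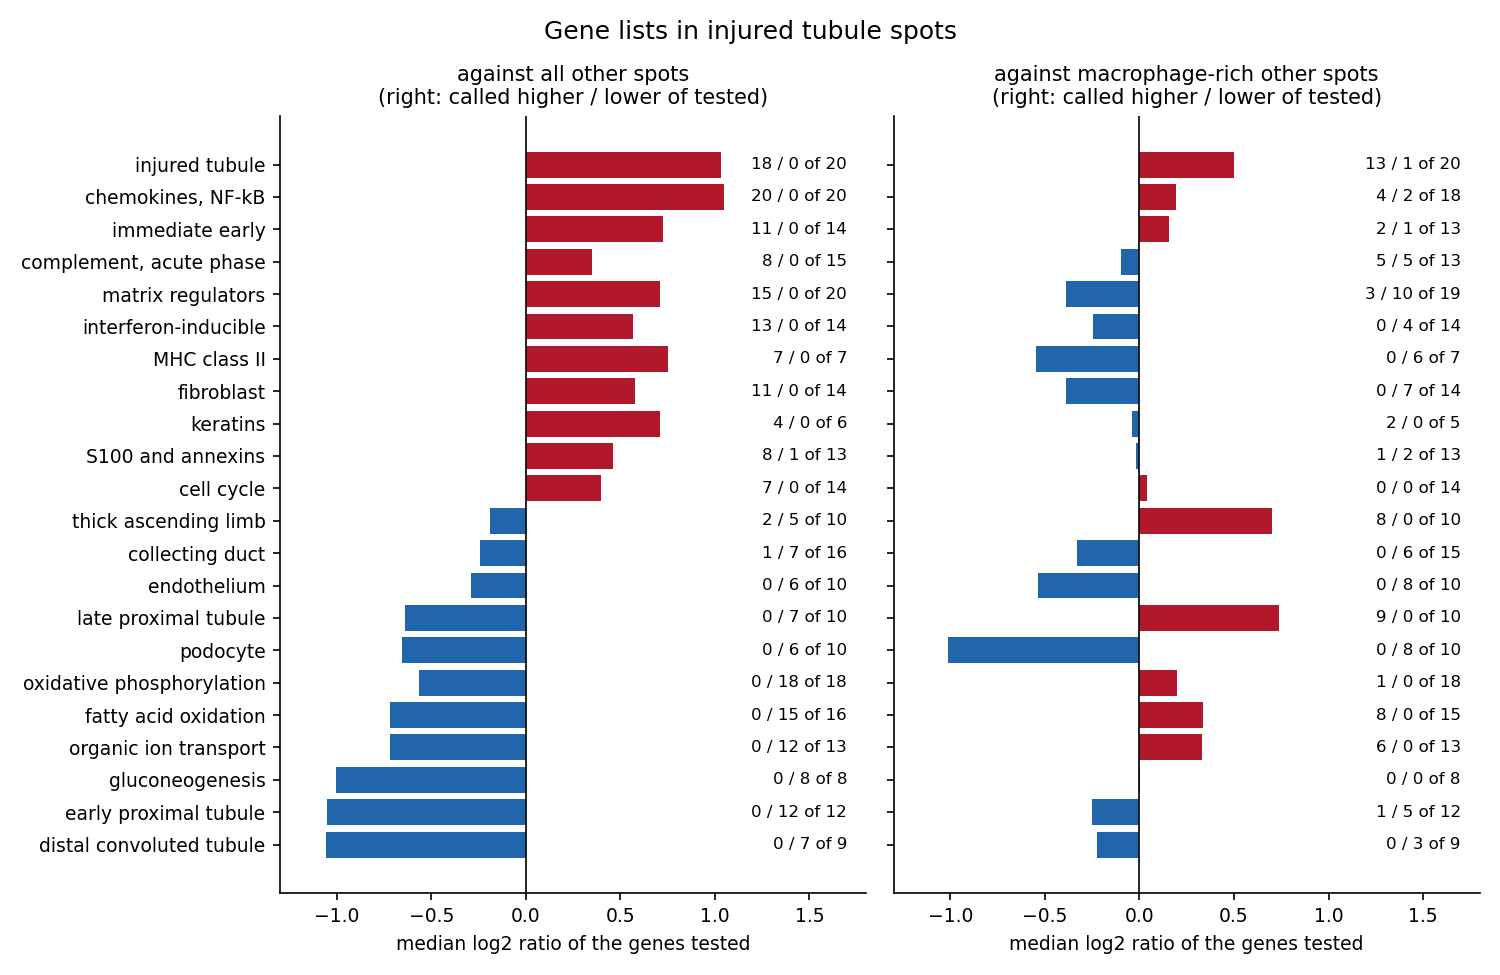
Median log2 ratio of the tested genes of 22 lists in injured tubule spots, against all other spots (left) and against macrophage-rich spots that were not chosen (right), with the number of genes called higher and lower at the right edge; bars carry no error because the genes of a list are not replicates. Injured tubule genes are higher in both panels (18 and 13 of 20), while late proximal genes are lower on the left (7 of 10) and higher on the right (9 of 10).

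The level of several lists followed the score in steps. Given as plain CPM summed over a list, the injured tubule list, of which Spp1 is the main part, was at 5752 in spots of score 0 and at 30602 in spots at or above the 99th percentile in 5m AS, at 4902 and 37601 with early treatment, and at 3273 and 45664 with late treatment. The early proximal list fell over the same steps, from 7313 to 2264, from 9763 to 3257 and from 10955 to 4560. Ascending limb genes did not run in 1 direction. They were at 3857 CPM at score 0 in 5m AS, highest at 7219 between the 90th and 95th percentiles and at 5597 in the top step. Macrophage markers rose to 3181 CPM in the top step of 5m AS, but were below their peak there in early treated 5m AS (2209 after 2352) and in late treated 5m AS (1691 after 2208). The top step held 85, 89 and 11 spots.

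**Figure D4:**
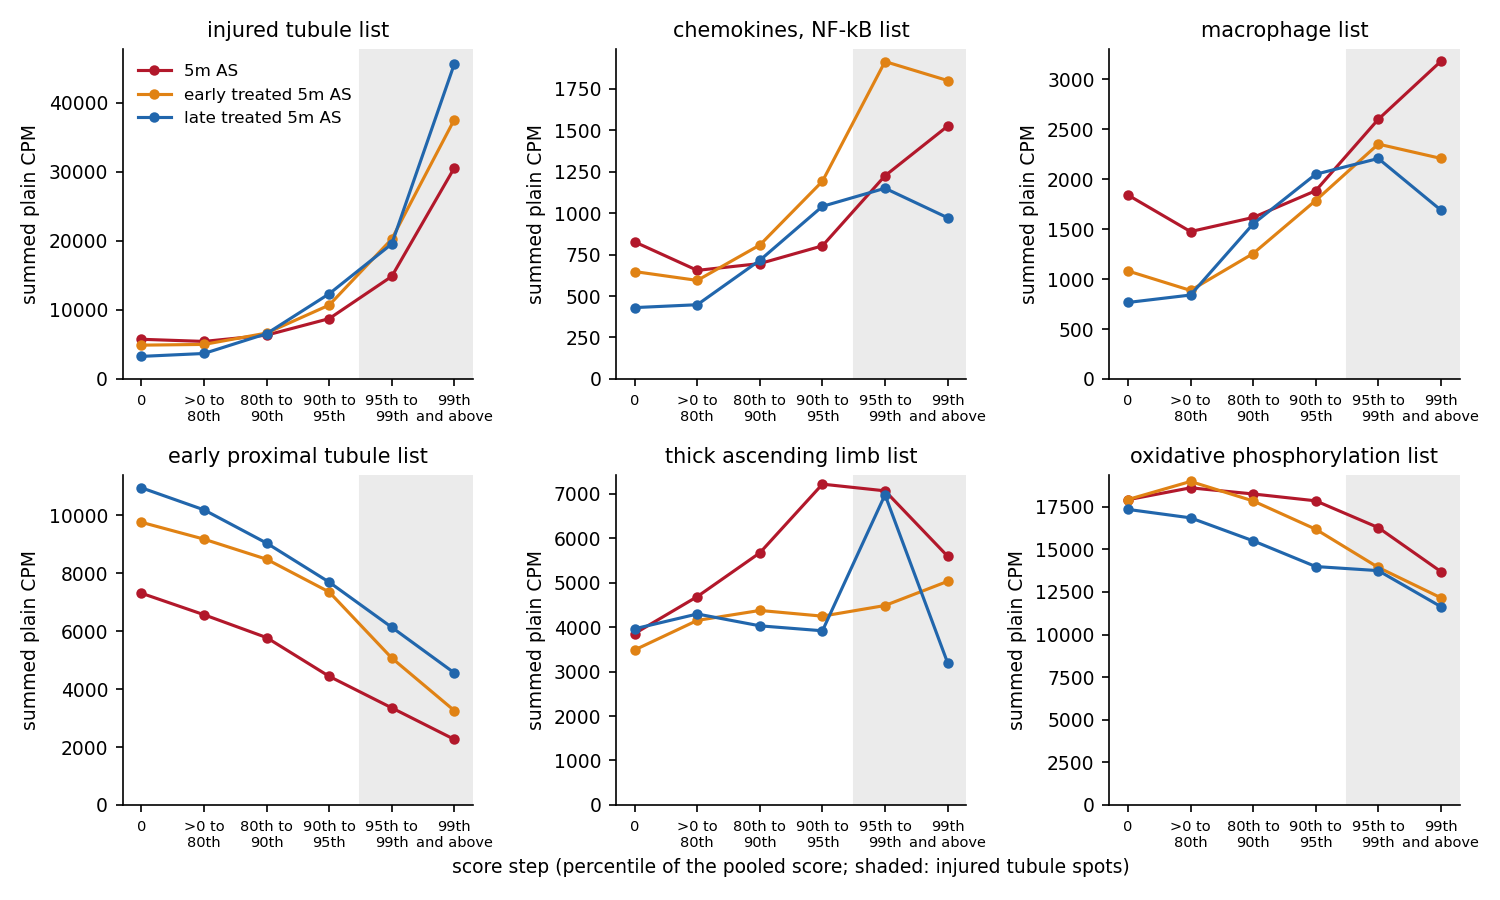
Summed plain CPM of 6 gene lists (vertical axes, starting at 0) in spots grouped by their Havcr1 and Lcn2 score, as percentiles of the pooled score, in 3 libraries; the injured tubule spots are shaded. The injured tubule list rises to 30602, 37601 and 45664 CPM and the early proximal list falls in every step, while the late treated point at the far right rests on 11 spots.

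Each spot was also given to the segment list that led it. In 5m AS the injured share was 32.8% of spots led by collecting duct genes, 30.4% of those led by ascending limb genes, 28.0% of podocyte-led, 21.0% of late proximal, 13.3% of distal convoluted and 3.90% of early proximal spots. In early treated 5m AS it was 15.2, 16, 19.2, 9.24, 12 and 3.26%, and in late treated 5m AS 2.45, 3.57, 3.61, 1.86, 1.5 and 0.674%. Early proximal spots had the lowest share in all 3 sections, with no test, and a spot with less of the genes of a segment can be given to another list. Podocyte genes led 26.1, 29.4 and 27.5% of the injured tubule spots and 21.7, 15.8 and 13.4% of the others, although the level of podocyte genes was lower in injured tubule spots. The name tubule thus holds for the marker genes and not for every cell under a spot. With the other spots weighted to the same mix of leading lists, 1349 genes were higher and 1879 lower, and the injured tubule list had 18 higher of 20 (median 0.91) and the early proximal list 12 lower of 12 (-0.78).

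The 2 marker genes were detected together in 473, 246 and 37 of the injured tubule spots. Across all spots of a section the rank correlation of their levels was 0.35, 0.13 and 0.13. Across the injured tubule spots it was -0.22, -0.66 and -0.47, a sign that the choice on their mean favours. The larger of the 2 was Havcr1 in 256, 212 and 31 spots of 5m AS, early and late treated 5m AS, and Lcn2 in 202, 140 and 17. Havcr1-led and Lcn2-led spots were compared in 5m AS and early treated 5m AS, which had at least 20 of each. With 2 libraries no test was run, and values are given with 95% intervals for a ratio of Poisson counts, which cover counting error only. Of 7737 genes measured, 30 (0.388%) were at least 1.5-fold higher in Havcr1-led spots in both libraries and 79 (1.02%) at least 1.5-fold lower.

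Ccl2, Ccl7, Vcam1 and Krt20 were higher in Havcr1-led spots. Ccl2 was at 155 CPM in Havcr1-led against 84.4 in Lcn2-led spots of 5m AS (ratio 1.84, 1.64 to 2.07), and at 506 against 62.4 in early treated 5m AS (8.11, 6.53 to 10.2). Ccl7 was at 40.7 against 18.6 and at 88.5 against 16.5 CPM (ratios 2.18 and 5.36). Vcam1 was at 352 against 197 and at 737 against 151 CPM (1.78 and 4.87), and Krt20 at 35.1 against 12.6 and at 81.2 against 22.2 CPM (2.78 and 3.65). The same direction in both libraries was required in naming Ccl2, Ccl7 and Krt20, and Vcam1 had it as well. The ratios were larger in early treated 5m AS, where the Havcr1-led spots were higher than those of 5m AS for all 4 genes. Of the measured chemokine list 5 of 17 were at least 1.5-fold higher and 1 lower in both (median log2 ratios 0.24 and 0.61, against 0.01 and 0.06 over all genes).

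Ccl20, Il1f6 and genes of the ascending limb and collecting duct were higher in Lcn2-led spots. Ccl20 was at 3.70 against 10.7 CPM in 5m AS (ratio 0.345) and at 12.6 against 92.5 in early treated 5m AS (0.137), where 28.7% of its 129 UMIs in Lcn2-led spots came from 1 spot. Il1f6 was at 10.5 against 20.1 and at 14.9 against 96.8 CPM (0.523 and 0.154). Clu, the secreted chaperone clusterin, had ratios of 0.627 and 0.183, and Krt18 of 0.645 and 0.236. Umod was at 4635 against 6925 and at 2234 against 6156 CPM. Of ascending limb genes 6 of 10, and of collecting duct genes 6 of 13, were at least 1.5-fold lower in Havcr1-led spots of both libraries, with 0 higher (median log2 ratios -0.62 and -1.13, and -0.82 and -0.58). Of 7 distal convoluted and connecting tubule genes 1 was lower and 0 higher in both (medians -0.40 and -0.89). Spots led by ascending limb genes made up 18.0% of Havcr1-led and 26.2% of Lcn2-led spots in 5m AS, and 6.60 and 15.7% in early treated 5m AS, and late proximal spots 35.9 against 23.8% and 17.0 against 4.29%. The neutrophil gene S100a9 was at 1.15 CPM in Havcr1-led against 26.5 in Lcn2-led spots of early treated 5m AS, from 37 UMIs in 4 of 140 spots with 56.8% of them in 1 spot, and its ratio in 5m AS was 0.531 (0.258 to 1.08). The part of neutrophils in the Lcn2-led spots was not tested.

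**Figure D5:**
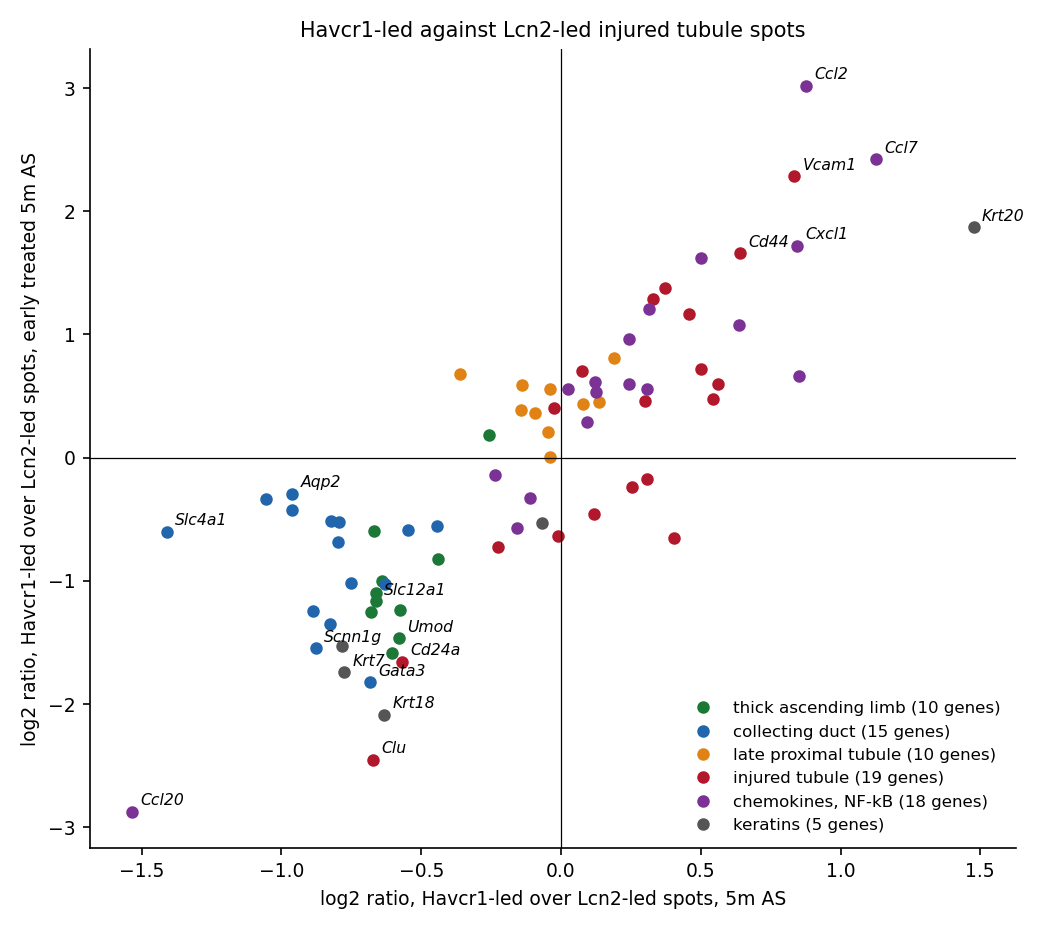
Log2 ratio of Havcr1-led over Lcn2-led injured tubule spots in 5m AS (horizontal) and early treated 5m AS (vertical) for the genes of 6 lists with at least 10 CPM in 5m AS, 1 point per gene. Ccl2, Ccl7, Vcam1 and Krt20 lie at the upper right, and Ccl20, Clu and Umod at the lower left.

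Across conditions the level of a gene within injured tubule spots was compared with 5m AS, with 1 library per group and therefore no test. Both comparisons share the 5m AS library, and 2m AS, with 14 injured tubule spots, was not compared. In early treated 5m AS 45 of 7487 genes (0.601%) were at least 2-fold higher in injured tubule spots and 129 (1.72%) lower, and in its other spots 69 (0.941%) and 100 (1.36%) of 7335. In late treated 5m AS 160 of 7700 (2.08%) were higher and 268 (3.48%) lower, from 51 spots, and in the other spots 133 (1.79%) and 185 (2.49%) of 7429. These counts moved with the scaling: with plain CPM they were 75 higher and 101 lower in early and 287 and 186 in late treated injured tubule spots, and with each spot weighted equally 101 and 103, and 637 and 283. In late treated 5m AS the larger number thus turned from lower to higher genes.

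Several of the genes that mark injured tubule spots had more RNA within them in early treated 5m AS than in 5m AS, and ratios nearer 1 in the other spots. Ccl20 had a ratio of 6.19 (4.69 to 8.23) in injured tubule spots and 1.2 in the others, Il1f6 2.96 (2.39 to 3.68) and 0.854, Ccl2 2.65 (2.47 to 2.85) and 1.13, and Cd44 2.46 (2.18 to 2.78) and 0.975. Fgb had 3.95 (3.33 to 4.70) and 1.79. In late treated 5m AS Fgb had a ratio of 3.40 (2.41 to 4.69) in injured tubule spots and 1.75 in the others, and Il1f6 3.45 (2.32 to 5.01) and 0.207, with 18 of the 34 Il1f6 UMIs of the injured tubule spots in 1 spot. Timp1 was lower in both kinds of spot (0.483 and 0.310), and so was Krt20 (0.441 and 0.136). Injured tubule spots were chosen by the same score threshold in every library, which can itself shape these ratios. The differences between the 2 kinds of spot were not tested.

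Other genes had large ratios in injured tubule spots. Those of G6pc, Serpina1d and Hspa1a were shared by the other spots, and for Cyp24a1 and Prlr no ratio in the other spots is given here. Cyp24a1, the enzyme that degrades active vitamin D, was at 51.4 CPM in early treated and 131 in late treated injured tubule spots against 7.83 in 5m AS (ratios 6.56 and 16.7), with 12.5 and 46.4 in the other spots. G6pc had 4.09 and 5.84 in injured tubule spots and 5.35 and 6.01 in the others. Serpina1d, 1 of a family of close protease inhibitor genes between which reads can be shared, had 3092 UMIs in the injured tubule spots of 5m AS (240 CPM), 3 with early and 0 with late treatment, and was at 297, 1.78 and 1.44 CPM in the other spots. Prlr, the prolactin receptor, had 386, 2 and 0 UMIs in injured tubule spots. The heat shock gene Hspa1a, which shares reads with Hspa1b, was at 228, 21.9 and 20.2 CPM in the injured tubule spots of 5m AS, early and late treated 5m AS, with ratios of 0.146 and 0.0614 in the others. Space Ranger, the counting software, was version 1.2.1 for 5m AS and 1.3.1 for both treated libraries, and in these comparisons the version cannot be told apart from the treatment.

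By list, early proximal genes were higher in the injured tubule spots of early treated (median log2 ratio 0.53 over 11 measured genes, 0.85 in the other spots) and late treated 5m AS (0.90) than in 5m AS, with 3 and 5 at least 2-fold higher and 0 lower. Late proximal genes were lower in early treated injured tubule spots (-1.42, 6 of 10 at least 2-fold lower) and in the others (-0.84). Injured tubule genes had a median of 0.27 in early treated injured tubule spots and -0.20 in the others, and of -0.02 and -0.66 in late treated 5m AS, while the chemokine list had 0.42 and -0.08, and -0.28 and -0.80. In both libraries these 2 lists were nearer to or above their 5m AS level within injured tubule spots and below it outside them. The same score threshold chose the spots in every library, which can itself shape this pattern for genes that follow the score. Its part was not tested, so the pattern is a description. Macrophage markers in late treated 5m AS had -0.54 in injured tubule spots and -0.90 in the others, and the part of macrophages in these differences was not tested.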

How the data were processed

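Spatial expression of kidney sections was deposited as whole-number counts of UMIs per gene and spot, with no normalization, for 6 libraries. The counts were made by the authors with Space Ranger 1.2.1 (WT and 5m AS) or 1.3.1 (the others), per the file headers, on mm10, per the submitters' processing notes. The sources used here do not give the annotation, strand handling or spot filters. Each file lists 32285 genes. No doublet caller was run, since a spot holds several cells, and spot positions were not used. Libraries share 1347 to 2939 array barcodes, a property of the slides.

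UMIs were summed over each kind of spot within a library and tested across genes with edgeR 4.0.16 (R 4.3.3; TMM, filterByExpr, glmQLFit, glmQLFTest), with the library as a block because both sums come from 1 section, and Benjamini-Hochberg adjustment over all genes at 0.05. The SE of a log2 ratio was derived as its absolute value divided by the square root of the F statistic of the edgeR test. DESeq2 1.42.0 was an alternative. The scripts were tested on simulated data. Ratios between 1 library and another carry exact Poisson intervals, and shares exact (Clopper-Pearson) 95% intervals. A count of 0 is given with a limit of 3 counts. Havcr1 and Lcn2, which chose the spots, were left out of all tests and counts, and so were the 17 macrophage markers in the comparison with macrophage-rich spots. Figures were drawn with matplotlib 3.10.9 in Python 3.11.15.

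Genes named have an adjusted p under 0.05, the same direction in every library and at least 10 CPM in the higher mean. The 12 largest ratios in each direction are taken, or 6 in the comparison with macrophage-rich spots and, by ratio alone, between Havcr1-led and Lcn2-led spots. For conditions the 5 largest are taken among genes with at least 20 CPM, 20 UMIs and a 2-fold difference. Up to 4 genes per list are added. Other genes named in the text were chosen after their values were seen. Predicted, ribosomal, mitochondrial, haemoglobin, immunoglobulin and sex-linked genes are left out of the naming. The spots, the 38 gene lists and the tests were chosen with earlier results of these data known, and lists overlap in part. Read sharing between close paralogs, as in the Serpina1, Ces1, Klk1 and Hspa1 families, cannot be resolved in these counts.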

Additional observations from a re-analysis of the deposited data

Results flagged for a closer look

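The 2m AS library took part in no test because it held 14 injured tubule spots of 3182, yet neither WT nor the mixed library held any, and this signal outside the tested libraries is why it is given here. The 14 spots held 274843 UMIs in all, so that 3 counts correspond to 9.87 CPM. Late proximal genes led 7 of the 14 spots (50%, exact interval 23.0 to 77.0%) and 1326 of the 3168 other spots of that section (41.9%), a share within that interval. Sprr1a was at 342 CPM there (104 UMIs) against 3.89 in the other spots of that section, Vcam1 at 398 against 14.8, C3 at 372 against 20.2 and Fgg at 135 against 17.4. Spp1 was at 10130 against 1007 CPM. Krt20 was at 49.4 against 0.265 CPM, from 15 UMIs, and Il1f6 had 6 UMIs, while Ccl20 and Mmp7 had 0. Of the tubule genes, Slc34a1 was at 1411 against 3587 CPM and S100g at 549 against 3057. Markers of other cell types moved with these spots: all 17 macrophage markers were higher there, summing to 1536 against 275.5 CPM, with Lyz2 at 365 against 41.8 and C1qb at 194 against 33.8, and 12 of 14 fibroblast genes, summing to 4481 against 1357 CPM. These are values of 1 section with no test. The part of these cells in them was not tested.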

How the results depend on the processing

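With spots thinned to 5000 UMIs and the threshold set again, the shares were 27.4% in 5m AS and 12.8% in early treated 5m AS, and no other share moved beyond its interval. Against other spots, the counts higher and lower were 908 and 1438 with DESeq2, 4085 and 1125 with plain library sizes, 925 and 1383 without macrophage-rich spots, 1062 and 1574 without fibroblast-rich spots (the last 2 chosen after seeing the data), and 730 to 1830 and 1236 to 2083 without 1 library, lowest without early treated 5m AS. Without the replicate block, that is the library, they were 0 and 0 (3237 at an unadjusted p under 0.05). Against macrophage-rich spots they were 182 and 242 with DESeq2, 339 and 1272 with plain library sizes, 869 and 974 without the filter on low counts, 9 and 32 without the replicate block, and 293 to 540 and 407 to 904 without 1 library. Of the 24 genes named against other spots, 24 kept their call under each setting run other than 2: without the block 0 did, and on Havcr1 alone 23 did. Genes at least 2-fold higher in injured tubule spots than in 5m AS numbered 75 (early) and 287 (late) with plain CPM, and 101 and 637 with each spot weighted equally. Directions turned for Umod on Havcr1 alone (-0.19), for Aqp3 (0.13), Scnn1b (0.25), Scnn1g (0.23), Atp6v1g3 (0.17), Slc4a1 (0.34), Plin2 (-0.073) and Hmox1 (-0.14) on Lcn2 alone, for Fxyd4 (-0.10) and Trac (-0.029) at the 99th percentile, and, against macrophage-rich spots, for Cyp7b1 (-0.72 to 1.22 without 1 library, reversed without 5m AS). The cause of these changes was not tested. The comparison of Havcr1-led with Lcn2-led spots had 2 libraries, so it has no test and its alternatives were not run. Depth limits late treated 5m AS most, where 51 spots were summed.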
